A study of Homo sapiens with 14 samples.

Results

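The 10 genes described here encode the machinery that activates the sterol regulatory element binding proteins (SREBPs) and enzymes that build fatty acids: SCAP, MBTPS1, MBTPS2, SREBF1, SREBF2, INSIG1, INSIG2, HSD17B12, FASN and ACACA. They were measured in 4 pooled CRISPR screens, in RKO and SW620, which are established human colorectal cancer cell lines. Guides were taken by gene symbol from each screen's count table, which gave 40 of 77441 guides (10 of 19114 genes) in each knockout screen and 30 of 56762 guides (10 of 18886 genes) in each activation screen. All 10 genes could be evaluated in every comparison. The genes were chosen by their fold changes in the RKO knockout screen, without drug and under oxaliplatin, so values from that screen are given as a description, with no test.

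In the knockout screens the cells carried Cas9, which cuts the gene a guide targets, and the Brunello guide library. In the activation screens they carried dCas9-VP64, a Cas9 that does not cut and is fused to a transcriptional activator, and the Calabrese library. All cells had been selected with blasticidin and then with puromycin. RKO was sampled at day 0, after 20 days without drug and after 20 days with 1.9 µM oxaliplatin, a platinum compound that crosslinks DNA. SW620 was sampled at day 0, after 20 days without drug, and after 20 days with 0.38 µM or with 0.5 µM oxaliplatin. Each of the 14 conditions is 1 library, so no difference could be set against the spread between cultures, and no test between conditions was possible.

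SREBPs are made as membrane proteins of the endoplasmic reticulum (ER), where the escort protein SCAP binds them and the sterol-sensing proteins INSIG1 and INSIG2 hold the complex back when sterols are plentiful. When sterols fall, SCAP carries the precursor in COPII vesicles to the Golgi, where site-1 protease (MBTPS1) and then site-2 protease (MBTPS2) release the active factor. SREBF1 encodes the factors best known for fatty acid genes and SREBF2 the factor best known for cholesterol genes. ACACA makes malonyl-CoA, FASN joins it to acetyl-CoA to make palmitate, and HSD17B12 is the ketoacyl-CoA reductase of the cycle that lengthens fatty acids in the ER.

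The promoters of SREBF2, INSIG1 and INSIG2 are shown because activation guides act near a gene's start. In the RKO activation screen, guides of SREBF2 (6.13) and INSIG2 (5.26) gave the highest single-guide log2 folds of the 10 genes, oxaliplatin over untreated. Neither value lay above the range of the non-targeting control guides (0.65 to 6.24). INSIG1 is the paralog of INSIG2. The positions of the guides are not given in the sources used here. Each line holds the 250 bases before the start, 5′ to 3′, from RefSeq (GRCh38.p14), where 8 of the 10 genes matched a promoter entry. Capitals mark matches, on either strand, to CACCCCA, a core of the sterol regulatory element that SREBPs bind, to the CCAAT box CCAAT and to the GC box GGGCGG. The INSIG2 line is 1 of its 2 windows.
SREBF2, chr22:41832855-41833104 (+): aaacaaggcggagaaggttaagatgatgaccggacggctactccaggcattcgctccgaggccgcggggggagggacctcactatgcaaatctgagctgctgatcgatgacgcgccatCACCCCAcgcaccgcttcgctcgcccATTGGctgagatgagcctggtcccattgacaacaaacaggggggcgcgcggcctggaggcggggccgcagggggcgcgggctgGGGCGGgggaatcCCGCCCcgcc
INSIG1, chr7:155297628-155297877 (+): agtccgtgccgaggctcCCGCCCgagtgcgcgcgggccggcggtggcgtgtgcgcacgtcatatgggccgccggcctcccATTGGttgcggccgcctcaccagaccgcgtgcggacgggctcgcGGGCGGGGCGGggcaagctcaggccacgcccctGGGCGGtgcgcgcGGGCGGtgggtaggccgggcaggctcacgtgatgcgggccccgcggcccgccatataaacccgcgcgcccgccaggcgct
INSIG2, chr2:118088221-118088470 (+): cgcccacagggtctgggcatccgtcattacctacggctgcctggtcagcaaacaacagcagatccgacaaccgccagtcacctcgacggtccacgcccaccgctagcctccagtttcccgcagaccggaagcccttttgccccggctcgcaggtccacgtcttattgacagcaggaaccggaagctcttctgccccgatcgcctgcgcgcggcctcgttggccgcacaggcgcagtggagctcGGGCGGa
The SREBF2 window held 1 match to CACCCCA, which 2459 of 35116 RefSeq windows of this length held (7.00%), with 1 CCAAT box and 2 GC boxes. The INSIG1 window held 1 CCAAT box and 5 GC boxes, of which neighbours share a base in one place, and the INSIG2 window held 1 GC box. No match overlapped a match to another motif. CCAAT occurs in 32.0% and GGGCGG in 42.6% of all windows. No other window of the 10 genes held CACCCCA.

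Library totals ran from 3647823 counts (SW620 activation, untreated day 20) to 69526489 (SW620 knockout, day 0). The most abundant 1% of guides made up 2.16 to 3.88% of the day 0 and untreated libraries. Under oxaliplatin that share was 41.4% in RKO, 9.55% in SW620 at 0.38 µM and 31.5% at 0.5 µM for knockout. For activation it was 52.8% in RKO, 7.19% in SW620 at 0.38 µM and 10.2% at 0.5 µM. A guide's fold is the log2 ratio of counts scaled by the median ratio over guides, after adding 5, and a gene's value is the median of its guides. A gene is called past 2-fold at a median of at least 1 or at most -1. As a second reading, a gene has to have at least 3 knockout guides, or 2 activation guides, beyond the central 95% of the non-targeting guides (which match no gene, 1000 in the knockout and 496 in the activation library) in the same direction.

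Without drug, knockout of the SREBP-activating genes and of fatty acid synthesis genes was lost from RKO. MBTPS1 was 21.0-fold lower at day 20 than at day 0, MBTPS2 11.7-fold, SCAP 7.86-fold, ACACA 5.63-fold, HSD17B12 4.96-fold and FASN 2.39-fold. These 6 of 10 genes were past 2-fold lower, against 11.7% of the 19084 genes evaluated. SREBF1, with a median log2 fold of -0.39, joined them in the second reading, where 7 of 10 genes lay below the non-targeting range (-0.13 to 0.96) against 20.4% of genes. SREBF2 (0.22), INSIG1 (0.11) and INSIG2 (0.28) had medians within that range. No gene of the library was past 2-fold higher.

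The escort protein SCAP showed the pattern in all 4 guides. Its guides had 624, 322, 516 and 734 counts at day 0, then 41, 30, 168 and 110 counts after 20 untreated days, and 2450, 3513, 2509 and 5628 counts under 1.9 µM oxaliplatin. Over the 3 libraries, every untreated count of these guides lay below every day 0 count, and every treated count above. SCAP was chosen with values of this screen and its guides are not replicates, so nothing is read from this separation. The share of all genes that show it is not given here. The median guide of the whole library had 352, 372 and 146 counts in the same 3 libraries. Scaling by the median ratio therefore gives a larger difference between treated and untreated cells than the raw counts do. Library totals were similar, at 34540094 counts untreated and 33836491 treated, so scaling by totals does not enlarge the difference in this way. As a share of the library, the SCAP guides went from 0.00693% (95% Wilson interval 0.00664 to 0.00722%) at day 0 to 0.00101% (0.000910 to 0.00112%) untreated and 0.0417% (0.0410 to 0.0424%) treated. These intervals cover counting error only, since reads from PCR are not independent molecules.

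The proteases were also low untreated and high treated. The 4 MBTPS2 guides had 397, 217, 249 and 386 counts at day 0, 28, 14, 15 and 45 counts untreated, and 3191, 886, 702 and 1416 counts treated. The 4 MBTPS1 guides had 562, 996, 458 and 499 counts at day 0, 21, 44, 14 and 30 counts untreated, and 524, 1678, 105 and 967 counts treated. For MBTPS2 the treated counts lay above all day 0 counts, while for MBTPS1 they spanned the day 0 range, and after scaling 3 of 4 guides, all but the third, were above their own day 0 value.

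Relative to untreated day 20, the oxaliplatin-treated RKO library held SCAP knockouts at a median log2 fold of 6.98 (single guides 5.19 to 7.93), MBTPS2 at 6.56 (6.12 to 7.87), MBTPS1 at 5.83 (3.72 to 6.40) and HSD17B12 at 5.27 (3.66 to 5.53). Of 19084 genes, 6 had a higher median than SCAP, 9 than MBTPS2, 12 than MBTPS1 and 15 than HSD17B12. ACACA followed at 3.30 (2.33 to 4.79) and FASN at 2.55 (-0.79 to 2.96). In all, 8 of 10 genes were past 2-fold higher, where 12.8% of all genes were, and 0 of 10 were lower, where 7.53% were. With total counts 6 were higher (without SREBF2 and INSIG2) and 2 lower (SREBF1 at -1.36 and INSIG1 at -1.49). The untreated library stands in both this comparison and the one of loss without drug. By the second reading 5 of 10 genes (SCAP, MBTPS1, MBTPS2, HSD17B12 and ACACA) lay above the non-targeting range of -1.38 to 2.42, where 0.660% of all genes did, and 0 of 10 lay below it, where 1.17% did. This contrast is among the values that chose the genes, so nothing is read from these counts.

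**Figure D1:**
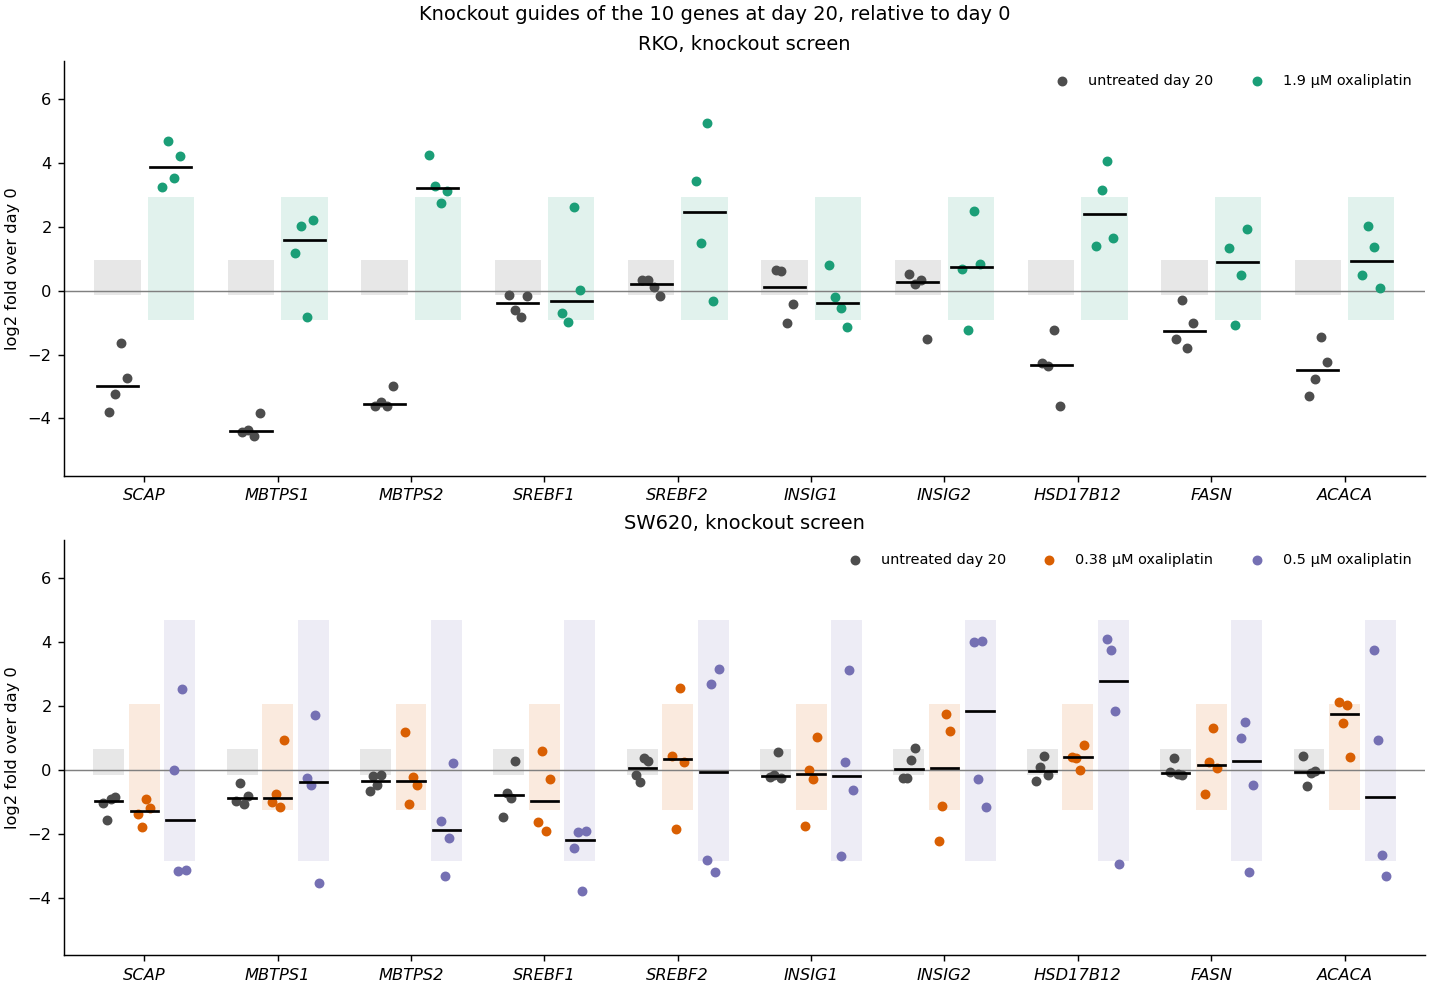
Log2 fold of every knockout guide over day 0 (y axis, log2 scale) for the 10 genes (x axis) in RKO (top) and SW620 (bottom). Points are guides, black bars are gene medians, and shaded boxes are the central 95% of non-targeting guides in the same library pair. In RKO the untreated points of SCAP, MBTPS1 and MBTPS2 lie at or below -1.64, and the treated SCAP points lie between 3.24 and 4.70, above the box.

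A fold over untreated day 20 holds both the loss without drug and the gain with it, and a low untreated count raises it. The treated library was therefore also set against day 0. SCAP knockouts ended 14.7-fold above day 0 (median log2 3.88, single guides 3.24 to 4.70) and MBTPS2 knockouts 9.23-fold (3.21, 2.75 to 4.27), with every guide above 0. HSD17B12 ended 5.31-fold above (2.41, 1.39 to 4.06) and MBTPS1 3.04-fold (1.60, -0.82 to 2.22). With libraries scaled to the non-targeting guides MBTPS1 was at 0.86 and with total counts at 0.23, so its call was lost under both. With total counts SCAP was at 2.51, MBTPS2 at 1.84 and HSD17B12 at 1.05. ACACA (0.93) and FASN (0.91) ended close to 2-fold above day 0 on this scaling, but below it (-0.44 and -0.45) when libraries were scaled by total counts. Of 10 genes, 5 were past 2-fold higher than at day 0 and 2 (SCAP and MBTPS2) had at least 3 guides above the non-targeting range of -0.90 to 2.94. The shares of all genes were 9.58% and 0.189%. None of the 10 was past 2-fold lower, where 17.0% of all genes were.

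Most knockouts that were lost without drug stayed lost with it. In RKO 2235 genes were past 2-fold lower in the untreated arm, and their median in the treated arm was -1.97 relative to day 0. Of these, 116 genes (5.19%) were above day 0 in the treated arm and 36 (1.61%) past 2-fold above. All 6 of the described genes that were lost without drug (SCAP, MBTPS1, MBTPS2, HSD17B12, FASN and ACACA) were above day 0 and 4 past 2-fold above. With libraries scaled to the non-targeting guides these counts were 6 and 3, and with total counts 4 and 3. Both comparisons use the same day 0 library, and the described genes are among the 2235. They were chosen with values of this screen, so nothing is read from their share.

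Genes with a similar untreated loss give another reference. Among 576 genes within 0.5 log2 units of SCAP's untreated value, the median fold of treated over untreated cells was 0.92, and 1 gene exceeded SCAP. For MBTPS2 the median of 495 such genes was 1.29, for MBTPS1 that of 278 genes was 1.76 and for HSD17B12 that of 619 genes was 0.60. None of these genes exceeded MBTPS2, MBTPS1 or HSD17B12. For ACACA 9 of 611 and for FASN 30 of 941 genes were higher. The described genes were chosen with values of this contrast, so nothing is read from their rank among such genes. The proteasome subunits, which growing cells need, are a further reference: all 31 were past 2-fold lower untreated (list median -2.74), and their list median under oxaliplatin was 0.70 over untreated and -2.09 over day 0.

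**Figure D2:**
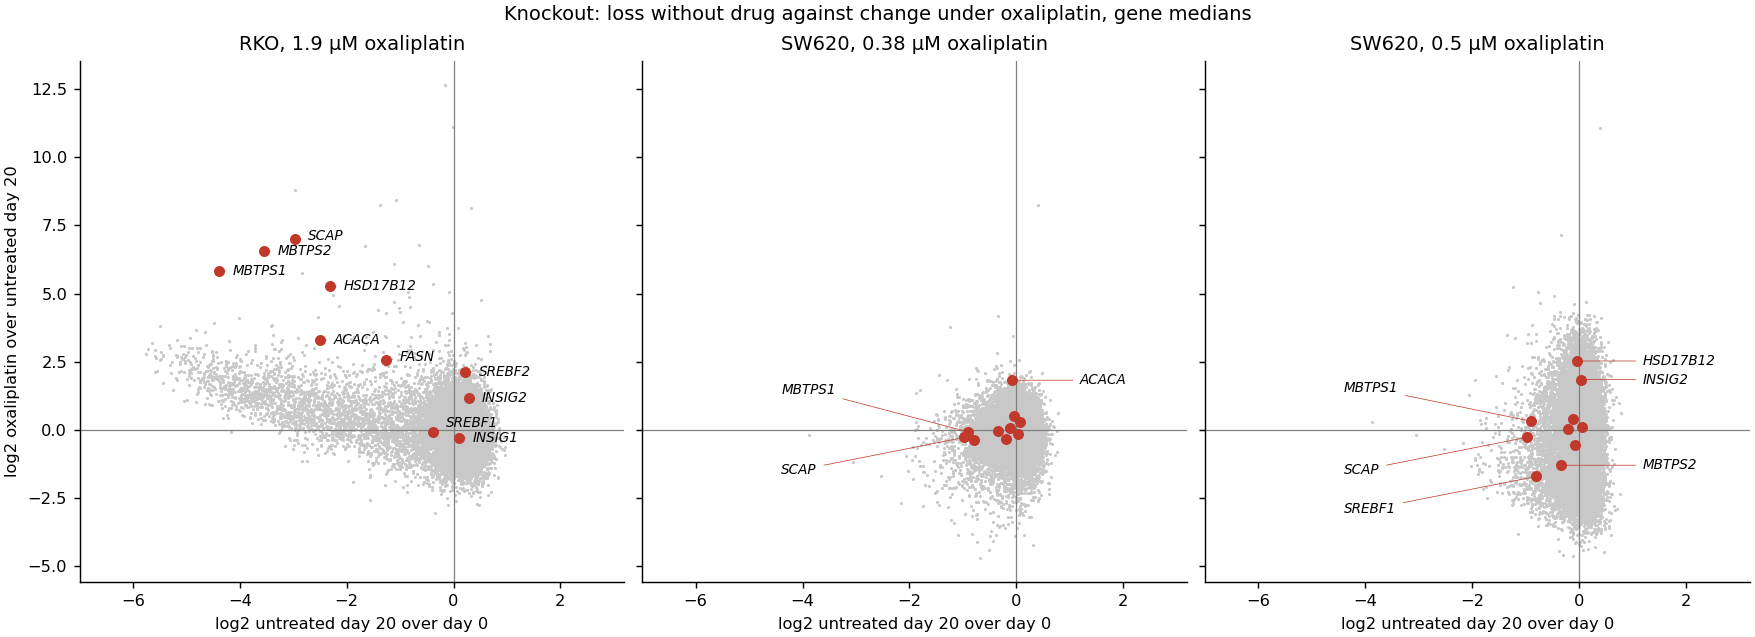
Gene medians of the knockout screens, with the untreated change from day 0 to day 20 on the x axis and the change of oxaliplatin over untreated day 20 on the y axis (both log2). Grey points are all evaluated genes and red points the 10 described genes, which were chosen by their RKO values. In the SW620 panels labels are given for SCAP, MBTPS1 and genes past 2-fold on the y axis. In RKO, SCAP, MBTPS1, MBTPS2 and HSD17B12 stand above the grey points of the same untreated loss, apart from 1 gene above SCAP, and in SW620 SCAP and MBTPS1 lie near 0 on the y axis.

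The SREBP genes themselves behaved unevenly. The 4 SREBF2 guides had 327, 500, 434 and 180 counts at day 0, 432, 663, 493 and 166 untreated, and 1473, 579, 6984 and 59 treated. SREBF2 knockouts were thus not lost without drug, and under oxaliplatin 2 of 4 guides lay above the non-targeting range while the fourth was at -0.14, for a median of 2.12 over untreated day 20. Without the guide of largest fold this median was 1.15, and with total counts it was 0.81. Of 15160 genes with a similar untreated value, 89 had a higher median. The described genes were chosen with values of this contrast, so nothing is read from this rank. The 4 SREBF1 guides had 231, 291, 682 and 458 counts at day 0, 218, 197, 400 and 427 untreated, and 58, 60, 1752 and 191 treated. Only the third was above the non-targeting range under oxaliplatin (3.46), and the median was -0.08.

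The INSIG genes, which restrain SREBP activation, were not past 2-fold lower without drug, although 2 INSIG1 guides and 1 INSIG2 guide lay below the non-targeting range. INSIG1 guides had 45, 78, 55 and 30 counts under oxaliplatin against 103, 359, 101 and 129 untreated, a median of -0.28 (single guides -0.83 to 0.45). INSIG2 guides had 293, 139, 1313 and 101 counts treated against 665, 985, 749 and 45 untreated, a median of 1.16 (-1.46 to 2.35), or -0.15 with total counts. All 4 INSIG1 guides and 3 of 4 INSIG2 guides lay within the non-targeting range.

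Among the enzymes, HSD17B12 had the highest median under oxaliplatin. Its guides had 282, 360, 259 and 143 counts at day 0, 56, 68, 111 and 6 untreated, and 308, 1356, 1815 and 189 treated, so that each guide was below its day 0 count without drug and above it with drug. ACACA guides had 665, 379, 425 and 272 counts at day 0, 65, 53, 158 and 55 untreated, and 383, 649, 457 and 119 treated. FASN guides had 504, 321, 218 and 486 counts at day 0, 182, 274, 61 and 248 untreated, and 526, 61, 126 and 777 treated. The second FASN guide was the least lost without drug (-0.29) and the only FASN guide lower under oxaliplatin than untreated (-0.79).

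The 6 genes lost from RKO without drug were lost less from SW620 knockout cells, while SREBF1 was lower in SW620 than in RKO. The 4 SCAP guides had 1430, 717, 1288 and 1506 counts at day 0 and 467, 156, 452 and 551 untreated, a median log2 fold of -0.97 (single guides -1.58 to -0.86). MBTPS1 followed at -0.90 (-1.07 to -0.42), SREBF1 at -0.79 (-1.47 to 0.27) and MBTPS2 at -0.34 (-0.67 to -0.15), while FASN (-0.11), ACACA (-0.08), HSD17B12 (-0.04), INSIG2 (0.04) and SREBF2 (0.07) lay near 0. None of the 10 genes was past 2-fold lower, where 1.21% of 19098 genes were. With libraries scaled to the non-targeting guides SCAP (-1.24), MBTPS1 (-1.16) and SREBF1 (-1.06) were. Folds of all genes were narrower in SW620, with a 5th percentile of -0.56 against -2.74 in RKO. By rank, 247 of 19098 genes were lower than SCAP, 317 than MBTPS1, 450 than SREBF1 and 1927 than MBTPS2. In RKO these numbers were 822, 172, 3320 and 495 of 19084. HSD17B12, FASN and ACACA ranked lower in RKO. The RKO values are among those that chose the genes, so nothing is read from the ranks there. By the second reading SCAP, MBTPS1, MBTPS2, SREBF1 and INSIG1 (-0.20) lay below the narrow non-targeting range (-0.17 to 0.64), 5 of 10 against 13.2% of genes. None lay above it, where 0.0209% did.

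Both lines were transduced with the same knockout guides, so the untreated loss was subtracted guide by guide. RKO minus SW620 was -3.46 for MBTPS1 (single guides -3.94 to -3.01), -3.03 for MBTPS2 (-3.29 to -2.84), -2.22 for ACACA, -2.18 for HSD17B12, -1.75 for SCAP and -1.14 for FASN. Every guide of these 6 genes was lower in RKO, and their medians lay below the non-targeting range of the same difference (-0.61 to 0.89). Many other genes did too: 1803 of 19084 genes were lower than FASN, the least negative of the 6. The untreated RKO values are among those that chose the genes, so nothing is read from this count. SREBF1 (0.08), SREBF2 (0.11), INSIG1 (0.32) and INSIG2 (0.26) lay within the non-targeting range. The lines also differed for other growth genes: the proteasome median was -2.74 in RKO and -0.52 in SW620, and whether the difference is particular to SREBP genes was not tested.

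In SW620 the doses were lower than in RKO, so line and dose cannot be told apart and values are given side by side. At 0.38 µM SCAP guides had 347, 128, 437 and 415 counts, a median of -0.27 over untreated (-0.36 to 0.02) and of -1.29 over day 0. MBTPS1 was at -0.07 and MBTPS2 at -0.04 over untreated. ACACA was the exception at this dose. Its guides had 1161, 409, 691 and 425 counts untreated and 3577, 1543, 2899 and 562 at 0.38 µM, a median of 1.82 (0.46 to 2.12) that 41 of 19098 genes exceeded. It was the 1 of 10 genes past 2-fold higher, where 4.95% of genes were, and 0 of 10 were lower, where 8.67% were. Of its guides 2 lay above the non-targeting range (-1.49 to 1.82). Over day 0 at this dose ACACA (1.74) was past 2-fold higher, as 5.52% of genes were, and SCAP past 2-fold lower, as 10.5% were.

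At 0.5 µM the guides of a gene disagreed widely, as non-targeting guides did (-3.14 to 4.46). ACACA guides had 3600, 350, 35 and 12 counts at this dose, a median of -0.55 (-3.27 to 3.31). HSD17B12 guides had 2897, 2163, 361 and 7 counts, a median of 2.53 (-2.78 to 4.46), against 0.52 (-0.46 to 0.96) at 0.38 µM. SCAP guides had 298, 15, 1550 and 34 counts, a median of -0.27 (-2.27 to 3.45). SREBF1 was the single gene with every guide below untreated, at 26, 33, 16 and 48 counts and a median of -1.71 (-2.93 to -0.98). Past 2-fold, 2 of 10 genes were higher (HSD17B12 and INSIG2, the latter at 1.84) and 2 of 10 lower (SREBF1 and MBTPS2, the latter at -1.29), where 25.0% and 30.5% of all genes were. With total counts HSD17B12 (0.46) and INSIG2 (-0.23) lost the call, and 8 of 10 genes were past 2-fold lower. No gene of the 10 met the second reading at either dose. At 0.38 µM 0.105% of all genes were high and 1.30% low by it, and at 0.5 µM 0.0157% and 0.508%.

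Other genes of the pathway were taken from lists by function. In RKO knockout 11.7% of all genes were past 2-fold lower untreated, and under oxaliplatin 12.8% were higher and 7.53% lower than untreated. Each list's counts are to be set against these shares, and nothing is read from lists near them. Genes lost untreated were higher over untreated more often than 12.8%. Of genes within 0.5 log2 units of SCAP's untreated value 47.7% were past 2-fold higher, of MBTPS2's 70.3% and of MBTPS1's 90.6%. Of 31 proteasome genes 13 were. The share of 12.8% is thus a low reference for lists that hold lost genes, and nothing is read from their counts of higher genes. Of 13 SREBP regulators, 2 were past 2-fold lower untreated in RKO and 3 were higher and 2 lower under oxaliplatin, with a list median of -0.45 over untreated. C12orf49 (now SPRING1), which MBTPS1 needs to mature, was at -0.73 untreated and 2.83 (2.39 to 4.00) over untreated under oxaliplatin, and it was the one regulator with at least 3 guides above the non-targeting range. FAF2, which helps draw proteins out of the ER for degradation, was at -1.57 and then 2.24. ERLIN2 was at -1.63. FBXW7, the ubiquitin ligase subunit that marks nuclear SREBPs for degradation, was at -3.21 untreated.

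The COPII coat carries SCAP out of the ER. Of its 13 genes, 2 were past 2-fold lower untreated (PREB at -3.54 and SEC13 at -1.98) and 6 were higher and 0 lower under oxaliplatin, with a list median of 0.27 against 0.06 for all genes. The shares of all genes were 11.7%, 12.8% and 7.53%. SEC31A (2.11), SAR1A (1.95), SEC23B (1.68) and PREB (1.67) were highest, and none had 3 guides above the non-targeting range. PREB stayed below day 0 under oxaliplatin (-2.02), unlike SCAP. Of 8 other substrates of site-1 protease, 0 were lost untreated, and 1 was higher (CREB3L2 at 1.76) and 1 lower (CREB3L1 at -1.55) under oxaliplatin.

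Among genes that feed fatty acid synthesis, ACLY, which makes cytosolic acetyl-CoA from citrate, was at -3.28 untreated, close to MBTPS2, yet at 0.87 over untreated and -2.23 over day 0 under oxaliplatin. SLC25A1, the mitochondrial citrate carrier, was at -1.07 and then -0.41. Of the 7 supply genes 2 were lost untreated and, under oxaliplatin, 0 were higher and 2 lower (ACSS2 at -1.29 and ME1 at -1.25). Of 11 elongation genes evaluated, which share a cycle with HSD17B12, 0 were lost untreated, and 2 were higher (ELOVL4 at 1.66 and ELOVL6 at 1.58) and 1 lower (ELOVL2 at -1.10) under oxaliplatin. In SW620 at 0.38 µM, 1 of the 7 supply genes was past 2-fold higher (MID1IP1 at 1.01), where 4.95% of all genes were.

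Of 9 genes that desaturate or activate fatty acids, 2 were lost untreated and 2 were higher under oxaliplatin. SCD, the main stearoyl-CoA desaturase, was at -4.54 and then 2.42 (0.61 to 5.85) over untreated, and at -1.11 over day 0. ACSL3 was at -1.26 untreated, and FADS1 at 1.59 under oxaliplatin. Of the 6 genes of the separate mitochondrial fatty acid pathway, 4 were lost untreated (MECR -5.49, MCAT -4.10, OXSM -3.83 and NDUFAB1 -2.14) and 4 were higher over untreated (MECR 2.84, MCAT 1.60, HSD17B8 1.36 and OXSM 1.07), with a list median of -1.86 over day 0.

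In cholesterol synthesis, 5 of 20 genes were lost untreated, led by PMVK (-4.75), HMGCS1 (-4.01), MVK (-3.89) and MVD (-3.48), all early enzymes of the mevalonate route. Under oxaliplatin 6 were higher and 2 lower than untreated, led by MSMO1 (2.25), PMVK (2.14), HMGCS1 (1.91) and SQLE (1.65), and the list median over day 0 was -0.20. Of all genes 11.7% were lost untreated, and 12.8% were higher and 7.53% lower under oxaliplatin. Of 8 cholesterol uptake genes, 0 were lost untreated, and under oxaliplatin 1 was higher and 1 lower (LIPA, the lysosomal lipase, at -1.53). In SW620 at 0.38 µM, 2 of 20 cholesterol synthesis genes were past 2-fold lower, led by FDPS (-1.90), and 1 was higher (FDFT1 at 1.03). Of the 6 genes of the mitochondrial pathway, 1 was lower (CBR4 at -1.92) and 0 were higher. The shares of all genes were 8.67% lower and 4.95% higher. No list held a gene with the median of SCAP, MBTPS1, MBTPS2 or HSD17B12 in RKO under oxaliplatin. Those genes were chosen with values of this contrast and the lists leave them out, so nothing is read from this difference.

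**Figure D3:**
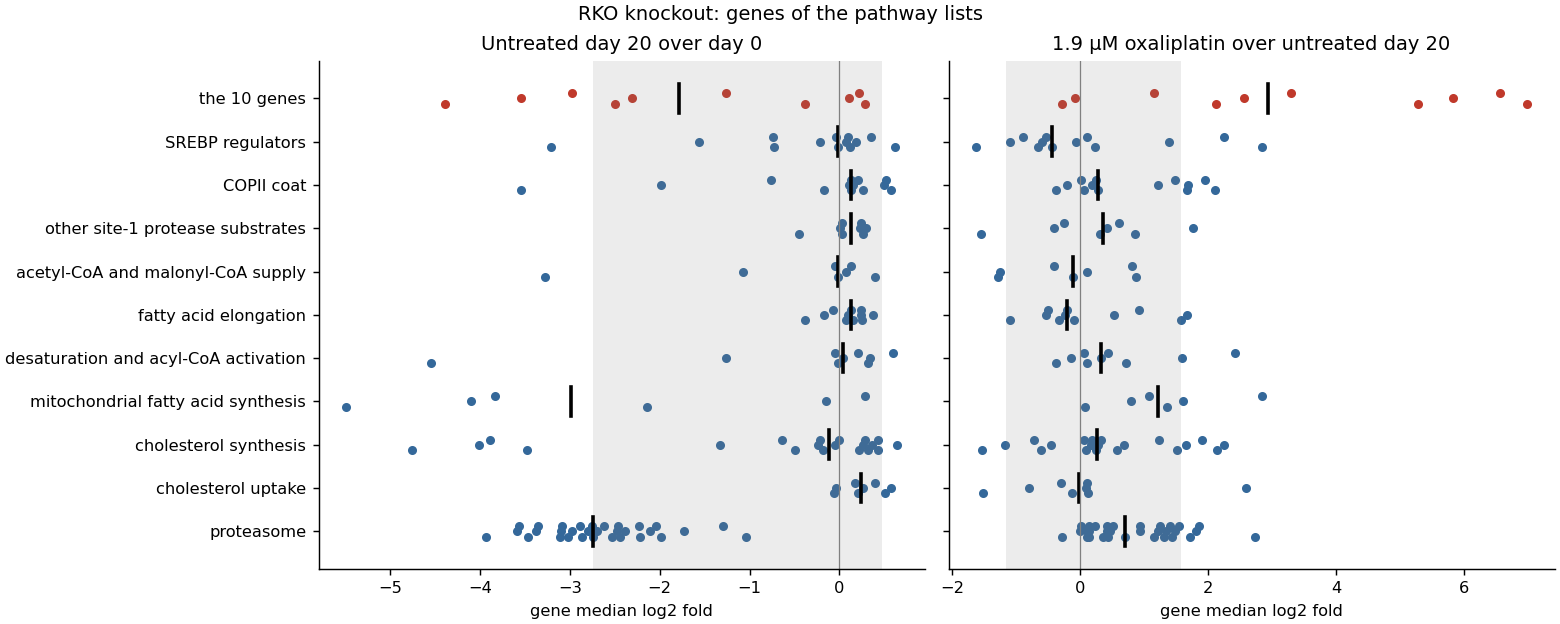
Gene medians (log2) in the RKO knockout screen for the 10 described genes (red) and the genes of each pathway list (blue), untreated over day 0 on the left and oxaliplatin over untreated on the right. Black bars are list medians, and the grey band runs from the 5th to the 95th percentile of all genes. The red genes were chosen with values of this screen. Proteasome genes lie left of -1 untreated and no further right than 2.73 under oxaliplatin, whereas the red points of SCAP, MBTPS2, MBTPS1 and HSD17B12 lie at 5.27 or higher.

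The genes nearest to the leading members were found by Euclidean distance over 5 knockout medians against day 0 (both lines, all arms) among 19084 genes. MBTPS2 was the nearest gene to SCAP (distance 1.47 log2 units), followed by CSNK2B (1.79) and KHDRBS1 (1.99), and CSNK2B (1.43) and SCAP (1.47) were the nearest to MBTPS2, followed by MDH2 (1.87). The nearest genes to MBTPS1 were ARIH1 (2.02), SKP1 (2.06) and NDC1 (2.23), and those to HSD17B12 were TP53BP1 (1.60), SEC23IP (1.73) and DDX17 (1.91). The 5 values share their libraries and day 0 counts. The RKO values are also among those that chose the described genes, so nothing is read from the distance between SCAP and MBTPS2. For SW620 at 0.5 µM over day 0, non-targeting guides alone ran from -2.85 to 4.69.

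In untreated cells the activation guides of the 10 genes stayed close to day 0, as those of nearly all genes did. Whether the guides raised their genes' expression is not given in these files. Medians at day 20 over day 0 ran from -0.29 (FASN) to 0.37 (SCAP) in RKO and from -0.45 (INSIG2) to 0.28 (MBTPS1) in SW620, and 0 of 10 genes were past 2-fold in either line. Of all genes, 0% were past 2-fold higher in either line, and 0.730% were lower in RKO and 0.399% in SW620.

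Under 1.9 µM oxaliplatin the RKO activation library was thin: 8101 guides (14.3%) had 0 counts and the median guide had 21. INSIG2 was the one gene of the 10 past 2-fold higher over untreated, where 25.8% of all genes were, and with total counts (0.28) it was not. Its guides had 1013, 832 and 765 counts untreated and 2750, 864 and 254 treated, a median log2 fold of 3.87 (2.23 to 5.26), and 571 of 18777 genes were higher. Every INSIG2 guide nevertheless lay within the non-targeting range, which ran from 0.65 to 6.24 around a median of 2.25 in this comparison, while the median of all genes was -0.81. INSIG1 was at -0.53.

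Most of the other genes were low in the same library, as much of the library was. SCAP guides had 648, 154 and 936 counts untreated and 42, 0 and 0 treated, where the floor of 3 counts in the treated library makes the guides at 0 at least 3.60-fold and 21.9-fold lower. MBTPS2 guides had 616, 419 and 542 counts untreated and 3, 2 and 115 treated (median -3.48), and MBTPS1 guides 979, 406 and 623 untreated and 7, 8 and 32 treated (-1.75). SREBF1 guides had 524, 1179 and 673 counts untreated and 0, 76 and 8 treated (median -2.46), with the guide at 0 at least 12.3-fold lower. In all, 6 of 10 genes were past 2-fold lower, the others being HSD17B12 (-2.18) and ACACA (-1.79), where 47.4% of all genes were, so the count is not a result about these genes. By the second reading 9 of 10 were low, where 69.3% of all genes were, and 0 of 10 high, where 0.176% were.

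SREBF2 was split between its guides. They had 1038, 142 and 535 counts untreated and 5167, 6 and 18 treated, so that the first guide was at 6.13 and the others at or below -0.67. The first guide lay within the non-targeting range of 0.65 to 6.24, and the other 2 lay below it. FASN was at 0.02.

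In the SW620 activation screen all medians lay between -1.29 and 1.03. HSD17B12 (-1.29) and INSIG2 (-1.01) were past 2-fold lower at 0.38 µM, 2 of 10 genes against 10.9% of all genes, and 0 of 10 were higher, where 8.74% were. FASN was past 2-fold higher at 0.5 µM (1.03, single guides 0.23 to 1.30), 1 of 10 genes against 12.3%, and with total counts it was at 0.51. None of the 10 was lower at this dose, where 15.2% of all genes were. INSIG2 guides had 75, 48 and 43 counts untreated, 182, 243 and 115 at 0.38 µM and 143, 32 and 68 at 0.5 µM, a median of -0.49 at the higher dose. By the second reading 0 of 10 genes were high or low at either dose. Of all genes, 0.714% were high and 1.73% low at 0.38 µM, and 1.12% and 1.87% at 0.5 µM. These folds rest on an untreated library with a median of 62 counts per guide.

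**Figure D4:**
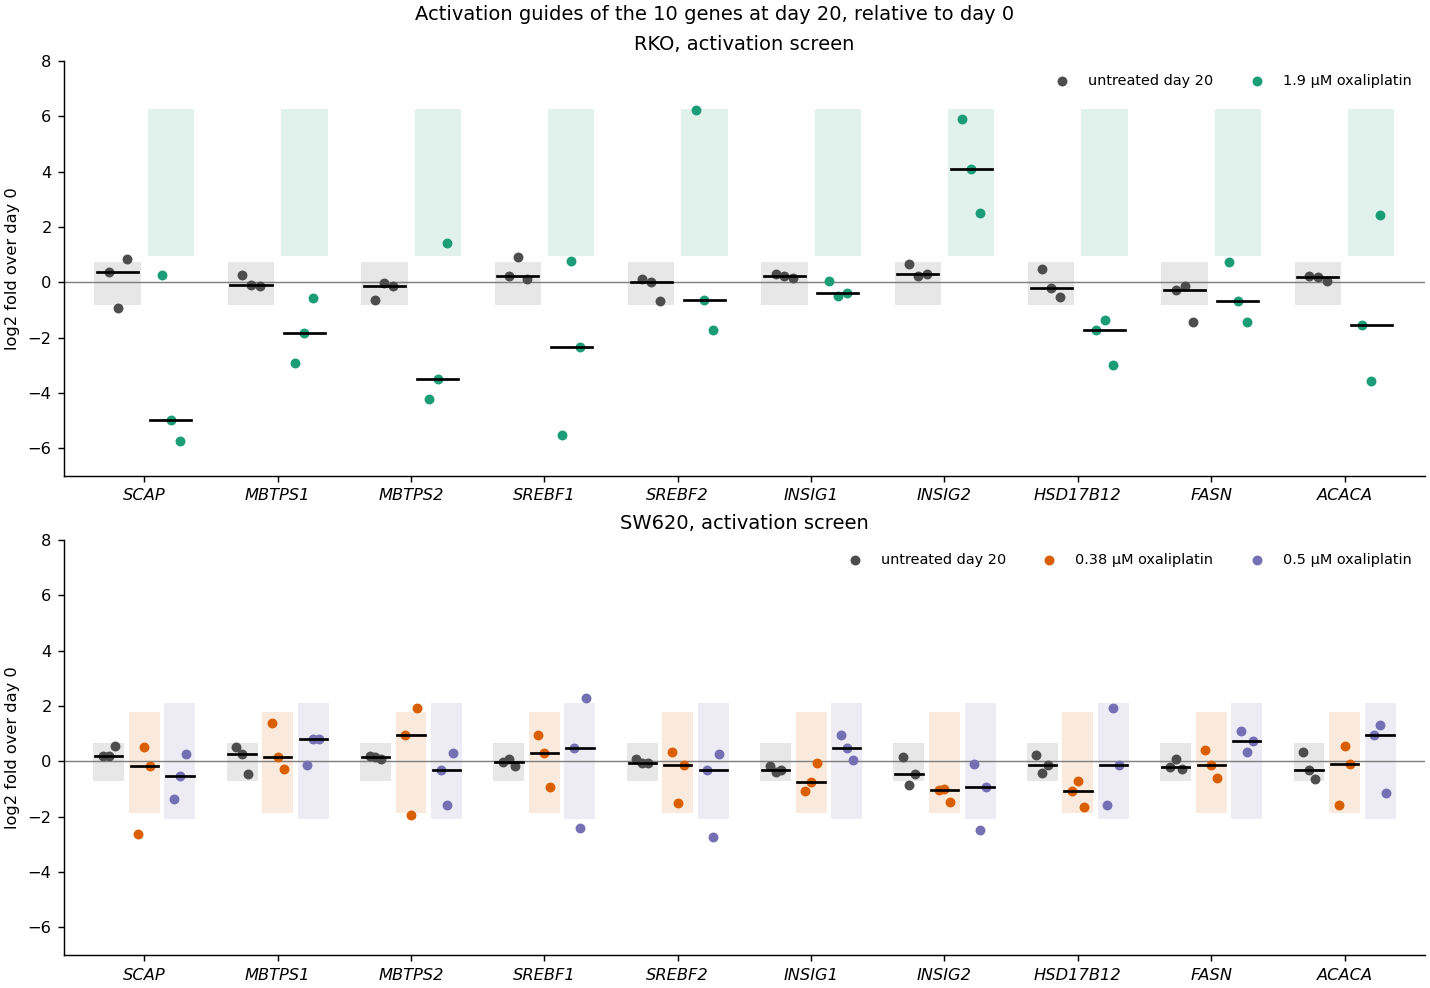
Log2 fold of every activation guide over day 0 (y axis, log2 scale) for the 10 genes (x axis) in RKO (top) and SW620 (bottom). Points are guides, black bars gene medians, and shaded boxes the central 95% of non-targeting guides. In treated RKO the INSIG2 points lie between 2.52 and 5.91, inside a box that runs from 0.95 to 6.28, and most points of the other genes lie below the box.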

How the data were processed

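Genomic DNA guide cassettes from 14 libraries of RKO and SW620 cells were counted in 4 screens. The authors deposited raw counts per guide, in whole numbers whose totals differ by library, and a normalized signal, which a check of the deposited values showed to be each count column times 1 constant. The submitters' processing notes list the tools cutadapt 4.0 and MAGeCK 0.5.7. The step each served is not given in these sources, and the count tables name no build.

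Counts were scaled by median ratio, guides under 30 scaled counts at day 0 were left out, and log2 folds were taken with a pseudocount of 5, which understates folds of low guides. Genes needed 3 knockout or 2 activation guides. Every column was matched to a sample by name, with 0 left without one. With 1 library per condition no test was run, and no p-value is given. The text names all 10 genes, up to 4 genes of each list with the largest median past 2-fold in each knockout comparison used, and the 3 nearest genes of 4 members. Values of some list genes are not reported here. The genes, lists and rules were chosen with earlier results of these data known. Guides of a gene share its target and are not replicates. The 9 alternative settings changed the pseudocount, the filter, the scaling, the gene value or the threshold. The calculation was tested on simulated untreated day 20 counts only, so the test does not cover the uneven oxaliplatin libraries. Python 3.11.15, numpy 2.4.6 and pandas 2.3.3 were used.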

Additional observations from a re-analysis of the deposited data

Results flagged for a closer look

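Medians past 2-fold in RKO whose sign was the opposite at both SW620 doses are listed here. Several SW620 values lay near 0, where the sign carries little. Over the alternative settings, MBTPS2 knockout at 0.38 µM ran from -0.46 to 0.23 and SCAP knockout at 0.5 µM from -2.21 to 0.16. None of these differences was tested, doses differ between the lines, and each condition is 1 library.

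In the knockout screens SCAP was at a median log2 fold of 6.98 over untreated in RKO at 1.9 µM, against -0.27 at both 0.38 and 0.5 µM in SW620. MBTPS2 was at 6.56 in RKO, against -0.04 and -1.29 in SW620.

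In the activation screens INSIG2 was at 3.87 in RKO, against -1.01 and -0.49 in SW620, and lay within the non-targeting range in RKO. In that RKO comparison 25.8% of all genes were past 2-fold higher and 47.4% lower. MBTPS1 was at -1.75 in RKO, against 0.20 and 0.52. SREBF1 was at -2.46, against 0.20 and 0.52. ACACA was at -1.79, against 0.55 and 0.61, and its RKO value turned positive without the guide of largest fold.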

How the results depend on the processing

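No paired analysis was possible because each condition has 1 library and the labels carry no replicate numbers that pair libraries, and for the same reason no library could be left out. Of 1280 single-gene values, 98 differed in sign from the value reported. Of these 90 had a reported value under 2-fold, among them ACACA (-0.44) and FASN (-0.45) over day 0 in RKO knockout with total counts, and 8 had one past it. Values without such a reversal past 2-fold moved by less than the SD over guides in 1207 cases and further in 65. In RKO knockout, SCAP ranged over all settings from 5.70 to 7.11 over untreated and from 2.51 to 3.93 over day 0, and MBTPS1 over day 0 from 0.23 to 1.61.

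The 8 values past 2-fold that changed sign were INSIG2 in RKO knockout (-0.15 with total counts), INSIG2 in SW620 knockout at 0.5 µM over untreated (-0.23 with total counts, -0.032 without the largest guide) and over day 0 (-0.25 and -0.29), SCAP there over day 0 (0.0036 without the largest guide), and ACACA in RKO activation without the largest guide (0.31 over untreated, 0.45 over day 0).

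In RKO knockout over untreated, the count of genes past 2-fold higher lay between 6 and 8 over all settings. Counts of the 10 genes past 2-fold that moved by over 1.5 times were these. With total counts, 2 were lower in RKO knockout under oxaliplatin, 1 was lower in SW620 knockout untreated, 0 were higher and 8 lower there at 0.5 µM, 0 were higher in RKO activation, and 0 were higher and 2 lower in SW620 activation at 0.5 µM. With non-targeting guides, 3 were lower in SW620 knockout untreated, 1 was higher and 4 lower there at 0.5 µM, and 1 was lower in SW620 activation at 0.38 µM. With guide means, 1 was lower in SW620 knockout untreated, 2 were higher in RKO activation and 0 were higher in SW620 activation at 0.5 µM. A threshold of 2 log2 units gave 0 higher in SW620 knockout at 0.38 µM, 1 higher and 0 lower at 0.5 µM, and in SW620 activation 0 lower at 0.38 µM and 0 higher at 0.5 µM. In SW620 activation a pseudocount of 20 gave 1 lower at 0.38 µM and 0 higher at 0.5 µM, and leaving out the largest guide gave 1 higher and 0 lower at 0.38 µM. The causes were not tested.

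Over all genes, scaling moved the medians. In RKO knockout under oxaliplatin over untreated, 2452 genes were higher and 1437 lower, against 1664 and 2510 with non-targeting guides and 389 and 11729 with total counts (shifts of -0.24 and -1.28). In SW620 knockout these were 946 and 1656, 390 and 2610, and 202 and 3592 at 0.38 µM, and 4782 and 5817, 1625 and 9761, and 244 and 14591 at 0.5 µM. In RKO activation they were 4846 and 8900, 1049 and 14436, and 262 and 16929. In SW620 activation total counts gave 658 and 3777 at 0.38 µM (from 1641 and 2047) and 718 and 5650 at 0.5 µM (from 2308 and 2857). Untreated medians shifted by -0.50 in RKO and -0.26 in SW620 knockout with non-targeting guides. Guides under 50 counts, such as those of MBTPS1 and MBTPS2 in untreated RKO, limit the precision of folds against that library.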
